A study of Homo sapiens with 12 samples.

Results

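The RNAs described here are 27 long noncoding RNAs of SW1736 cells: 13 snoRNA host genes (12 SNHG genes and GAS5), 12 long intergenic RNAs named LINC, and the nuclear body RNAs MALAT1 and NEAT1. They were chosen by name and abundance: a symbol made of SNHG or LINC and a number, or GAS5, MALAT1, NEAT1, H19 or MEG3, with at least 500 counts in total over 12 libraries. Of 56832 symbols in the count table, 159 bore such a name, 71 of them had no count, and 61 more stayed below the minimum. H19 held 5 counts over all libraries and MEG3 held 0, so the imprinted RNAs fell outside the set. Just inside the minimum were LINC00476 with 678 and LINC00896 with 875 counts, and just outside it were LINC01002 with 448 and LINC00235 with 439. All 27 passed the filter on low counts.

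The labels give the cells as SW1736, an established cell line from an anaplastic thyroid cancer. The cells carried pCDH-TRB, a vector for stable expression of thyroid hormone receptor beta (TRB cells), or pCDH-EV, the empty vector (EV cells). All cells were first kept for 24 h in medium with hormone-stripped serum, then were treated for another 24 h with 10 nM of the thyroid hormone T3 (triiodothyronine) or with the solvent alone, sodium hydroxide (vehicle), which gave 4 groups of 3 libraries of total RNA. The labels name neither the promoter of the vector, nor the number of clones, nor whether the 3 libraries of a group came from separate cultures, so p-values measure the spread between these libraries, which may be technical.

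As a check on the labels, THRB, the gene of the supplied receptor, stood at 80.2, 79.8 and 80.4 CPM (a gene's count relative to the scaled total of its library) in TRB cells with vehicle and at 322, 190.3 and 297 with T3. In EV cells it stood at 13.03, 15.2 and 15.6 CPM with vehicle and 12.3, 18.3 and 14.2 with T3, so every TRB library lay above every EV library. Within TRB cells every T3 library lay above every vehicle library. Hormone and more receptor RNA therefore cannot be told apart in comparisons that use TRB cells with T3. Thyroid markers were low: TSHR and FOXE1 held 0 counts in all libraries, TG reached at most 5 counts and SLC5A5 1, while PAX8 ranged from 0.565 to 7.20 CPM. The epithelial markers KRT8, KRT18 and EPCAM each exceeded 235 CPM everywhere. Of the mesenchymal genes VIM had at most 18 counts, while FN1 ranged from 9.61 to 309 CPM. Of the immune markers LYZ ranged from 792 to 1456 CPM while PTPRC and CD3E had at most 2 counts, and the endothelial genes PECAM1, CDH5 and VWF had at most 3. VIM, commonly high in anaplastic thyroid lines, was thus near 0 while KRT8, EPCAM and LYZ were high, and the identity of the line was not tested.

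Counts within genes ranged from 3819306 to 13086717 per library. Replicate 2 of TRB cells with T3 stood apart. Its reads came from genes with a mean GC content of 44.4%, against 48.5% to 51.4% in the other 11 libraries, and genes of low GC content were higher in it than in replicates 1 and 3 of its group (Spearman -0.87 over 12471 genes, -0.76 over the 27 RNAs, given as a description). The biological coefficient of variation, the spread between replicates beyond counting error, was 0.619 in that group with this library and 0.0576 without it. Results are therefore given from a fit of all 12 libraries and from a fit of the 11 others. The share of reads set aside as not unique also varied. In EV cells it was 66.3%, 33.1% and 37.9% with vehicle and 77.7%, 69.6% and 91.95% with T3, without overlap. In TRB cells it was 66.9%, 43.7% and 46.4% with vehicle and 58.9%, 19.03% and 66.6% with T3, with overlap. Replicate 3 of EV cells with T3 had the highest share, the fewest counts in genes and the highest mean GC content (51.4%). Whether this share affects the EV results or the interaction was not tested. In bulk RNA, fewer cells with a transcript and less of it per cell cannot be told apart.

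**Figure D1:**
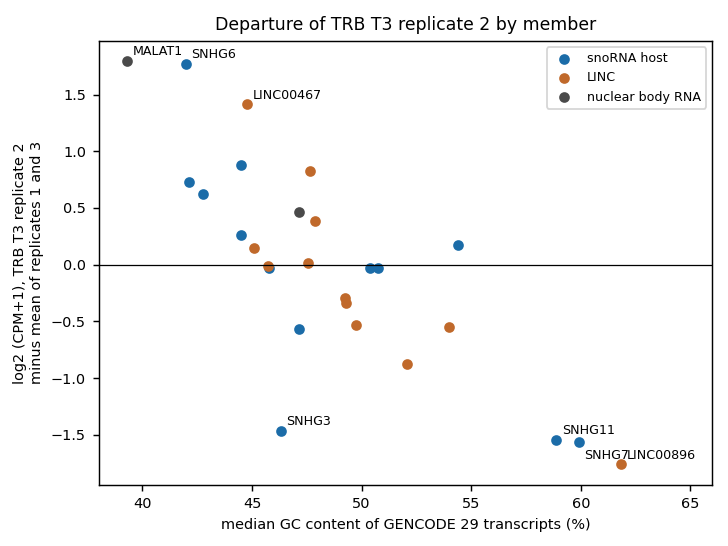
Each point is 1 of the 27 RNAs: the horizontal axis gives the median GC content of its GENCODE 29 transcripts in percent, and the vertical axis the difference in log2 (CPM + 1) between replicate 2 of TRB cells with T3 and the mean of replicates 1 and 3. MALAT1 (39.3% GC) and SNHG6 (42.0%) sit 1.80 and 1.77 above the line, and SNHG7 (59.9%) and LINC00896 (61.8%) sit 1.57 and 1.76 below it.

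Small nucleolar RNAs (snoRNAs) guide the methylation and pseudouridylation of ribosomal RNA, and most human ones are cut out of the introns of a host gene. Many hosts share with ribosomal protein genes a pyrimidine-rich start, the 5′ terminal oligopyrimidine (TOP) motif, which ties translation to growth signals, and spliced host RNAs without a long reading frame are commonly degraded by nonsense-mediated decay when translated. NEAT1 is the scaffold of paraspeckles, and MALAT1 is an abundant RNA of nuclear speckles. LINC is a naming scheme for intergenic noncoding genes and implies no shared function.

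The starts of the snoRNA hosts are shown because a TOP motif would lie there. RefSeq promoter entries (GRCh38.p14) were found for 22 of the 27 RNAs, and the 30 bases around the annotated start, 15 before it and 15 from it, are given for 10 hosts, in the order in which they are described below. Capitals mark a run of at least 6 C or T bases, counted from a C within 10 bases of the start. C or T bases before that C are not marked. At SNHG7 they reach further upstream than 10 bases, so the whole run begins outside that limit. The same search was used for all promoters.
SNHG4 (chr5:139274086-139274115, plus strand): ctcggctcccggctgCCCTTTCCCCTCCgg
SNHG5 (chr6:85678719-85678748, minus strand): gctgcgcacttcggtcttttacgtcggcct
SNHG8 (chr4:118278747-118278776, plus strand): aaggcctcggCCTTTCacattcgggaagcg
SNHG7 (chr9:136728170-136728199, minus strand): gcttcCCTTCTCgtcctctgcgtgcgccgg
GAS5 (chr1:173869031-173869060, minus strand): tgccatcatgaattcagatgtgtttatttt
SNHG1 (chr11:62855871-62855900, minus strand): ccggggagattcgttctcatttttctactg
SNHG16 (chr17:76557749-76557778, plus strand): cgcaggggcggtctcgcgttCTTTTCgagg
SNHG10 (chr14:95534858-95534887, minus strand): tgggccttatgccggagcctcatcctactg
SNHG3 (chr1:28505928-28505957, plus strand): cctcagtgagtttctgattctctaactgcg
SNHG12 (chr1:28581859-28581888, minus strand): tcgcggcttcagcgCCCTTTCTCCCCgccg
Such a run was found at 5 of 11 hosts with an entry (45.5%), at 3 of 11 other members (27.3%) and at 7288 of 35116 promoters in all (20.8%). The longest runs were those of SNHG4 and SNHG12. The RefSeq start of GAS5 lies upstream of the GENCODE 29 gene. The letters AGGTCA, the core hexamer of the thyroid hormone response element, were searched on both strands of the 300-base promoters (250 before the start and 50 from it) and occurred in 3 of 22 members (LINC00346, LINC00294 and GAS5, 13.6%) and in 13.8% of all promoters. A direct repeat of this hexamer with 4 bases between the copies was found in no member's window and in 7 promoters in all. A match or its lack describes the letters only.

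In TRB cells, T3 was set against vehicle to see which of these RNAs change with hormone once receptor has been added. Most snoRNA hosts were lower with T3, NEAT1 was higher, and the LINC genes split in both directions. In edgeR 14 of the 27 passed (adjusted p under 0.05 over all genes), 3 higher and 11 lower, where 14.7% of all 14431 genes passed, 8.54% higher and 6.2% lower. Without replicate 2 of TRB cells with T3 17 passed, 4 higher and 13 lower, where 33.3% of 14825 genes passed, 18.1% higher and 15.2% lower, and the 14 were among them in the same direction. Of the 13 hosts 9 fell in the fit of 12 libraries and 11 in that of 11, with 0 higher in either, and the median log2 fold change over the 13 was -0.89 and -0.85, beside 0.01 and -0.01 over all genes tested. The libraries of the groups did not overlap for 12 of 13 hosts, all lower with T3, where 23.5% of genes were lower without overlap. Leaving out that library, all 13 were lower without overlap, where 36.4% of genes were.

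**Figure D2:**
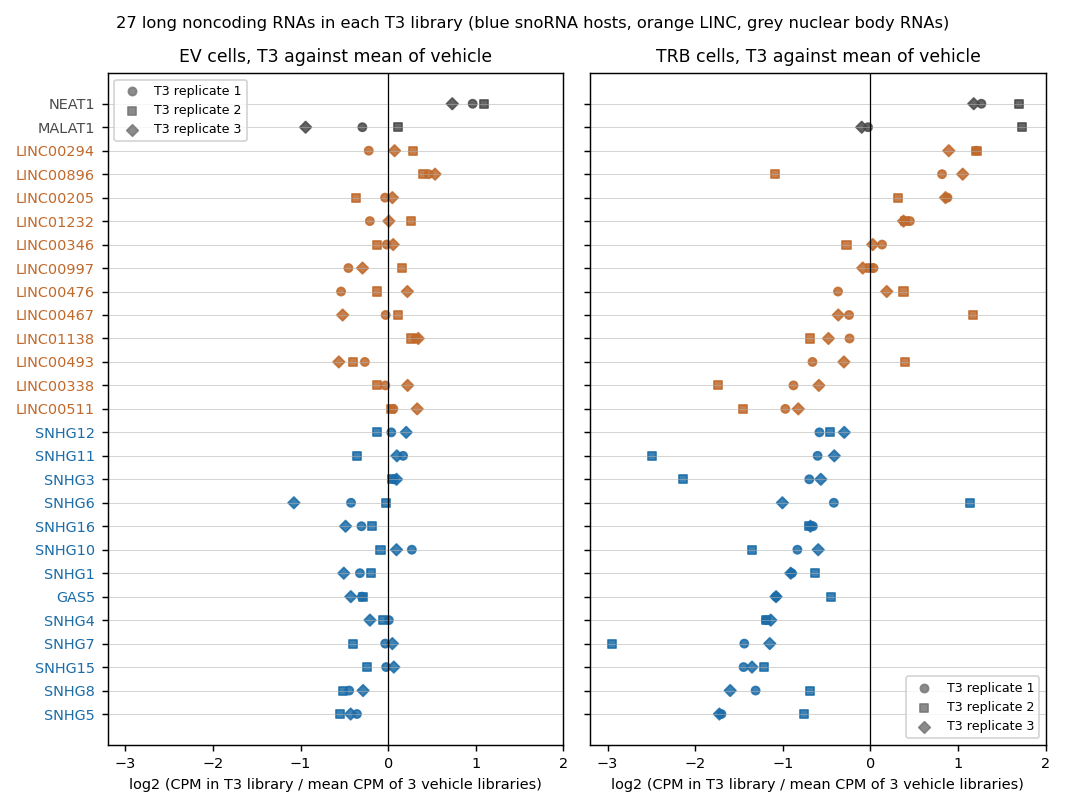
For each of the 27 RNAs the horizontal axis gives log2 of the CPM in a T3 library divided by the mean CPM of the 3 vehicle libraries of the same cells, with EV cells on the left and TRB cells on the right; circles, squares and diamonds are T3 replicates 1, 2 and 3. In TRB cells with T3 all 13 hosts lie left of 0 in replicates 1 and 3 and 12 of 13 in replicate 2, SNHG6 being the exception.

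SNHG15, host of SNORA9 on chromosome 7 (44983023 to 44986961, minus strand, GENCODE 29 on GRCh38), had the smallest adjusted p among the hosts. It stood at 46.9, 42.4 and 44.7 CPM with vehicle and at 16.4, 19.2 and 17.5 with T3 in TRB cells. The T3 libraries lay far below the vehicle libraries, with replicate 2 close to the other T3 replicates. The fitted log2 fold change was -1.34 (SE 0.172, edgeR adjusted p 0.000475), and -1.35 without replicate 2.

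SNHG4, whose introns hold SNORA74A and SNORA74D, stood at 27.1, 23.5 and 26.02 CPM with vehicle and at 11.2, 11.2 and 11.6 with T3 in TRB cells. Its 3 T3 libraries were nearly equal. Its log2 fold change was -1.17 (SE 0.171, edgeR adjusted p 0.00103), and -1.12 without replicate 2. SNHG4 lies within MATR3 on the same strand of chromosome 5 and opposite SIL1, and the strand setting of the counting is not given in the sources used here. The same comparison gave 0.35 for MATR3 (edgeR adjusted p 0.494) and -0.38 for SIL1 (adjusted p 0.486), neither past the threshold.

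SNHG5, host of SNORD50A and SNORD50B, stood at 27.3, 26.7 and 30.1 CPM with vehicle and 8.63, 16.5 and 8.49 with T3. Replicate 2 was the highest T3 library and was still below every vehicle library. The fall was -1.33 (SE 0.264, edgeR adjusted p 0.00643) with 12 libraries and -1.66 (SE 0.153) with 11, the most negative value among the hosts in the second fit. SNHG8, host of SNORA24, went from 56.6, 50.9 and 57.2 CPM to 22.1, 34.00 and 18.1, again without overlap. Its log2 fold change was -1.15 (SE 0.221, edgeR adjusted p 0.00541) and -1.39 without replicate 2.

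SNHG7, host of SNORA17A and SNORA17B, departed in the other direction in that library. Its levels were 75.2, 73.7 and 72.2 CPM with vehicle and 27.2, 9.53 and 33.2 with T3, so replicate 2 was the lowest. The log2 fold change was -1.65 (SE 0.362, edgeR adjusted p 0.0111) with 12 libraries and -1.24 (SE 0.162) with 11. The GC content of its transcripts is 59.9%, and that of SNHG5 and SNHG8 is 44.5% and 42.1%.

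GAS5, an RNA that accumulates in growth-arrested cells and hosts 11 snoRNAs in RefSeq, stood at 269, 229.8 and 244 CPM with vehicle and 117, 181 and 117 with T3 in TRB cells. Replicates 1 and 3 were nearly equal, replicate 2 was higher, and all were below the vehicle libraries. The log2 fold change of GAS5 was -0.84 (SE 0.193, edgeR adjusted p 0.0142) with 12 libraries and -1.03 with 11. SNHG1, with 9 snoRNA genes inside it in RefSeq, went from 186, 169 and 176 CPM to 94.9, 114 and 94.2. The change of SNHG1 was -0.81 (SE 0.147, edgeR adjusted p 0.00397) and -0.85 without replicate 2.

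SNHG16, host of SNORD1A, SNORD1B and SNORD1C, held the most counts of the hosts, 35578 over 12 libraries. Its levels were 358, 370.2 and 338 CPM with vehicle and 225, 219 and 221 with T3, with a narrow spread in the T3 group. It fell by 0.68 (log2, SE 0.131, edgeR adjusted p 0.00558) and by 0.62 without replicate 2. SNHG10, host of SCARNA13, a guide RNA of Cajal bodies, fell by 0.89 (SE 0.212, edgeR adjusted p 0.0175), from 16.1 ± 0.940 to 8.64 ± 2.18 CPM (mean ± SD, n = 3), and by 0.67 without replicate 2. SNHG10 lies opposite GLRX5, for which the same comparison gave 0.32 (adjusted p 0.174) with 12 libraries and 0.40 (adjusted p 0.0249) with 11.

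4 hosts did not pass with 12 libraries. SNHG3, host of SNORA73A and SNORA73B, stood at 102, 97.9 and 106 CPM with vehicle and 62.8, 23.2 and 68.8 with T3, a change of -0.98 (edgeR adjusted p 0.0616) that passed without replicate 2 (-0.58, adjusted p 0.000572). SNHG3 shares its strand and locus on chromosome 1 with RCC1, whose value was -0.46 (adjusted p 0.25) with 12 libraries and -0.12 (adjusted p 0.403) with 11. SNHG11 showed the same pattern at a lower level, with 10.9, 9.91 and 9.65 CPM against 6.68, 1.80 and 7.62 and an adjusted p of 0.146 that became 0.0483.

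SNHG12, host of SNORA16A, SNORA44, SNORA61 and SNORD99, stood at 30.5, 21.5 and 24.6 CPM with vehicle and 17.04, 18.5 and 20.7 with T3. The groups did not overlap, and the change of -0.44 (SE 0.182) missed the threshold in both fits (edgeR adjusted p 0.132 and 0.0795). SNHG6, host of SNORD87, was the exception in direction, at 34.05, 33.3 and 30.4 CPM with vehicle and 24.4, 71.8 and 16.2 with T3. Replicate 2 was the highest of all 12 libraries while replicates 1 and 3 lay below the vehicle libraries, and the fitted change was 0.19 (SE 0.464) with 12 libraries and -0.62 (edgeR adjusted p 0.0829) with 11.

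**Figure D3:**
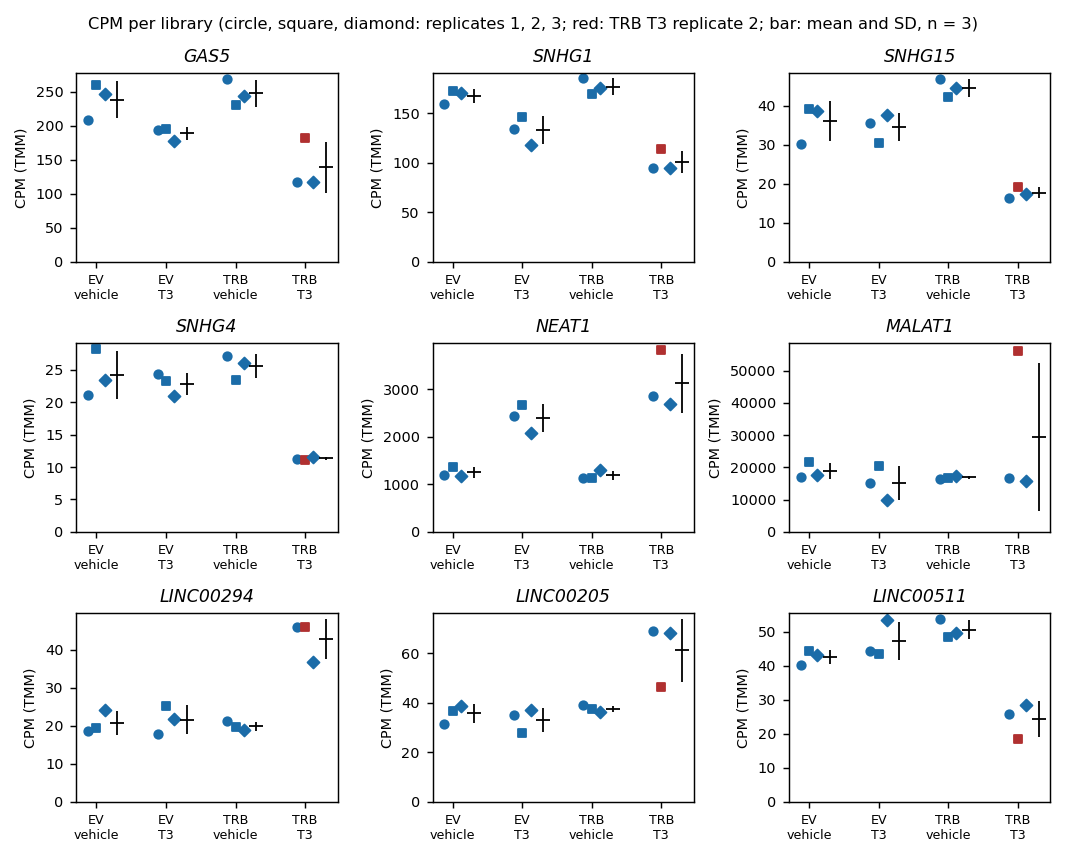
CPM after scaling (vertical axis, from 0) in each library of the 4 groups for 9 RNAs; circles, squares and diamonds are replicates 1, 2 and 3, red marks replicate 2 of TRB cells with T3, and the bar gives the mean and SD (n = 3). GAS5, SNHG1, SNHG15 and SNHG4 have their lowest group mean in TRB cells with T3, NEAT1 is higher with T3 in both kinds of cell, and MALAT1 is high in the red library alone.

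As a share of all counts in genes, the 13 hosts together made up 0.130%, 0.120% and 0.124% in the vehicle libraries of TRB cells and 0.0655%, 0.0570% and 0.0662% in the T3 libraries. In EV cells the shares were 0.115%, 0.120% and 0.120% with vehicle and 0.103%, 0.102% and 0.0964% with T3. The 3 T3 libraries of TRB cells were the lowest of the 12, replicate 2 with them.

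NEAT1, on chromosome 11 (65422774 to 65445540, plus strand), stood at 1127, 1142 and 1299 CPM with vehicle and 2859, 3839 and 2691 with T3 in TRB cells. All T3 libraries were above all vehicle libraries, and replicate 2 was the highest. NEAT1 rose, with a log2 fold change of 1.40 (SE 0.184, edgeR adjusted p 0.000552) with 12 libraries and 1.27 with 11. Its neighbour MALAT1 (65497688 to 65506516 on the same strand) did not pass. MALAT1 stood at 16363, 16844 and 17390.1 CPM with vehicle and 16542, 56095 and 15736 with T3, so replicate 2 was high and the other T3 replicates lay within or just below the vehicle libraries. Its change of 0.80 (SE 0.455, edgeR adjusted p 0.251) became -0.02 without that library. MALAT1 took 4.40% of all counts there (95% Clopper-Pearson interval 4.39% to 4.42%, counting error only) and 1.01% to 2.15% in the other 11.

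Among the 12 LINC genes 4 passed in TRB cells, 2 in each direction. LINC00294 on chromosome 11 (33076149 to 33079454, plus strand) stood at 21.1, 19.6 and 18.8 CPM with vehicle and 45.9, 45.9 and 36.8 with T3. It rose by 1.11 (SE 0.193, edgeR adjusted p 0.00315), the same value as with 11 libraries. LINC00294 lies within the protein-coding gene TCP11L1 on the same strand, and TCP11L1 rose by 1.18 (edgeR adjusted p 0.00162), or 1.06 with 11 libraries. Reads of the 2 genes may not be told apart in these counts. CSTF3, on the opposite strand, gave 0.38 (adjusted p 0.46).

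LINC00205 on chromosome 21 (45288050 to 45297806, plus strand), annotated as a noncoding RNA of a bidirectional promoter, stood at 38.9, 37.6 and 36.3 CPM with vehicle and 69.1, 46.6 and 68.1 with T3. Replicate 2 was between the groups, and the rise was 0.70 (SE 0.197, edgeR adjusted p 0.036) with 12 libraries and 0.92 with 11. LINC00511, a gene with 106 annotated transcripts on chromosome 17, stood at 53.8, 48.5 and 49.6 CPM with vehicle and 25.8, 18.5 and 28.6 with T3. Its T3 libraries were the lowest 3 of the 12, and it fell by 1.05 (SE 0.188, edgeR adjusted p 0.00362) and by 0.85 without replicate 2.

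LINC00338 is now named SNHG20 and counts as a snoRNA host under that name, with SCARNA16 inside it in GENCODE 29. Its levels were 15.4, 13.7 and 17.6 CPM with vehicle and 8.48, 4.68 and 10.4 with T3. It fell by 0.98 (SE 0.264, edgeR adjusted p 0.0308) and by 0.69 without replicate 2. SEC14L1, which overlaps it on the same strand, gave -0.04 (adjusted p 0.866). LINC00896 stood at 8.33, 7.15 and 6.38 CPM with vehicle and 12.8, 3.42 and 15.1 with T3, where replicate 2 was the lowest of all 12 libraries and the other 2 the highest. It passed only in the fit without replicate 2 (0.98, SE 0.149, edgeR adjusted p 0.00026, against 0.54 and 0.368 with 12).

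Of the LINC genes with many counts, LINC00346, now PRECSIT, stood at 28.9, 28.7 and 28.5 CPM with vehicle and 31.4, 23.7 and 29.2 with T3 in TRB cells, a change of -0.03 (SE 0.162). LINC00493, now SMIM26, is annotated as protein-coding in GENCODE 29. It stood at 21.1, 29.1 and 24.2 CPM with vehicle and 15.7, 32.6 and 20.1 with T3, with replicate 2 the highest, and its change of -0.13 did not pass (-0.44, edgeR adjusted p 0.063 without that library). LINC00467 was likewise high in replicate 2 alone, at 17.4, 46.2 and 15.99 CPM with T3 against 20.4, 22.1 and 19.4 with vehicle. LINC01138, LINC01232, LINC00997 and LINC00476 had group means of 5.82 to 11.2 CPM and did not pass in either fit.

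**Figure D4:**
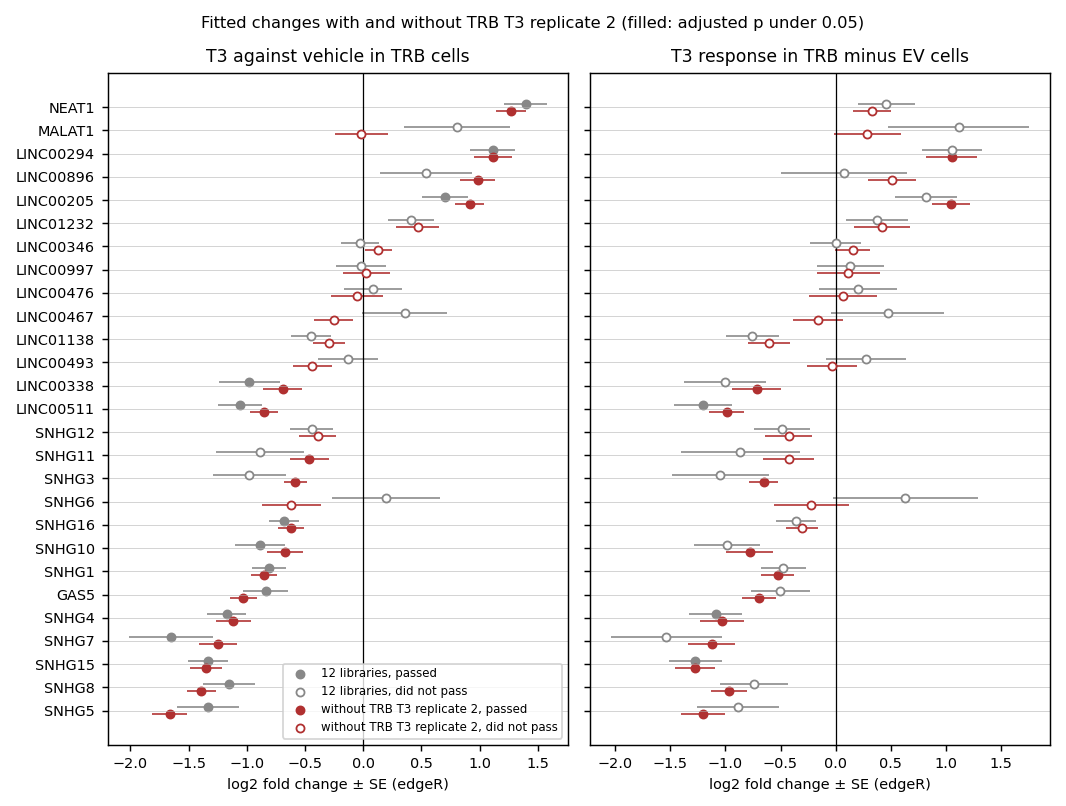
Fitted log2 fold change ± SE (edgeR) of the 27 RNAs for T3 against vehicle in TRB cells (left) and for the T3 response in TRB cells minus that in EV cells (right); grey is the fit of 12 libraries, red the fit without replicate 2 of TRB cells with T3, and filled circles passed an adjusted p under 0.05. On the left SNHG15 and SNHG4 have nearly the same value in both fits, while MALAT1 moves from 0.80 to -0.02 and SNHG6 from 0.19 to -0.62.

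With the TRB groups alone, which leaves fewer libraries, 4 of the 14 passed (SNHG15, SNHG4, NEAT1 and LINC00294). With GC offsets and without replicate 2, which are 2 changes at once, the count was 23. The share of all genes past the threshold under these settings is not given here, so neither count is set against it.

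In EV cells the same hormone treatment asked what T3 does where no receptor was supplied. 0 of the 27 passed in edgeR with 12 libraries, where 0.229% of all genes passed, 0.208% higher and 0.0208% lower. Of the 27, 3 had an unadjusted p under 0.05 (NEAT1, SNHG1 and SNHG16), and DESeq2 called 1 and limma-voom 0. Without replicate 2 of TRB cells with T3, which shares the estimate of the spread, NEAT1 rose and SNHG8 fell, 2 of 27 where 7.33% of genes passed, 3.76% higher and 3.57% lower. NEAT1 stood at 1203, 1375 and 1172 CPM with vehicle and 2439, 2664 and 2075 with T3. All T3 libraries were higher, with a change of 0.94 (SE 0.182, edgeR adjusted p 0.0865) with 12 libraries and 0.94 (adjusted p 0.000581) with 11. With 12 libraries NEAT1 passed with the EV groups alone (adjusted p 0.0154), with GC offsets (0.00313) and in DESeq2 (7.24e-05), and did not in limma-voom (0.0677). Over all alternatives its adjusted p ranged from 5.18e-07 with GC offsets and without replicate 2 of TRB cells with T3 to 0.351 without replicate 3 of EV cells with vehicle.

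SNHG8 stood at 47.6, 52.1 and 50.4 CPM with vehicle and 36.7, 34.9 and 41.00 with T3 in EV cells, and its change of -0.42 (SE 0.109) had an edgeR adjusted p of 0.0387 with 11 libraries and 0.902 with 12. GAS5 stood at 208, 260.0 and 246 CPM with vehicle and 193, 195 and 177 with T3 (-0.33, adjusted p 0.0631 with 11 libraries). The groups did not overlap for either. SNHG1 stood at 159, 173 and 171 CPM with vehicle and 134, 146 and 118 with T3. SNHG16 stood at 409, 395 and 407 CPM with vehicle and 327, 354 and 288 with T3. Both were lower with T3 in all libraries and past no threshold (edgeR adjusted p 0.0627 and 0.0679 with 11 libraries). With SNHG5 these made 5 of 13 hosts with non-overlapping groups, all lower, where 15.9% of genes were. SNHG15, SNHG4 and SNHG3 did not separate in EV cells: SNHG15 stood at 30.2, 39.3 and 38.7 CPM with vehicle and 35.5, 30.5 and 37.7 with T3.

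The median log2 fold change of the 13 hosts in EV cells was -0.12 in both fits, beside -0.000337 and 0.01 over all genes. LINC00511 stood at 40.4, 44.5 and 43.1 CPM with vehicle and 44.5, 43.6 and 53.7 with T3, and LINC00294 at 18.5, 19.5 and 24.2 CPM with vehicle and 17.7, 25.3 and 21.8 with T3, with overlapping groups for both. MALAT1 ranged from 9757 to 20298 CPM in the EV libraries with T3 and overlapped the vehicle group.

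Between EV and TRB cells with vehicle, the comparison of the receptor without added hormone, 0 of the 27 passed in edgeR in either fit, where 0.0208% of all genes passed with 12 libraries (0.00693% higher, 0.0139% lower) and 0.0742% with 11 (0.027% higher, 0.0472% lower). With 12 libraries 0 had an unadjusted p under 0.05, and DESeq2 and limma-voom called 0. With 11 libraries 6 had an unadjusted p under 0.05. Of the hosts 6 were higher without overlap in TRB cells, where 15.9% of genes were, and 2 were lower, where 20.5% were. SNHG15 stood at 46.9, 42.4 and 44.7 CPM in TRB cells and 30.2, 39.3 and 38.7 in EV cells with vehicle, the change of 0.31 having an edgeR adjusted p of 0.9997. SNHG5 stood at 27.3, 26.7 and 30.1 CPM in TRB cells and 18.2, 22.9 and 25.3 in EV cells. SNHG16, one of those lower in TRB cells, stood at 358, 370.2 and 338 CPM there and 409, 395 and 407 in EV cells.

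With T3 present, TRB cells against EV cells gave 7 of 27 RNAs past the threshold, 2 higher and 5 lower, where 6.68% of all genes passed, 4.13% higher and 2.55% lower. Without replicate 2 of TRB cells with T3 the count was 14, 3 higher and 11 lower, where 19.7% passed, 11.8% higher and 7.9% lower. This comparison uses the same T3 libraries of TRB cells as the T3 response above. LINC00205 (0.89, SE 0.199, edgeR adjusted p 0.0239) and LINC00294 (0.99, adjusted p 0.0129) were higher. SNHG4 (-1.02, SE 0.171, adjusted p 0.00569), SNHG15 (-0.97, adjusted p 0.00746), SNHG16 (-0.54, adjusted p 0.0332), LINC00511 (-0.95, adjusted p 0.0134) and LINC00338 (-1.004, adjusted p 0.0494) were lower. With 11 libraries these 7 gave 1.12, 0.99, -0.95, -0.96, -0.48, -0.73 and -0.69 in the same order, and all 7 passed.

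GAS5 did not pass between TRB and EV cells with T3 in the fit of 12 libraries (-0.44, edgeR adjusted p 0.181). It passed without replicate 2 (-0.63, adjusted p 0.00206), as did SNHG1, SNHG3, SNHG5, SNHG7 and SNHG8. NEAT1 stood at 2859, 3839 and 2691 CPM in TRB cells and 2439, 2664 and 2075 in EV cells with T3, all TRB libraries higher, with a difference of 0.39 (SE 0.181) that did not pass in either fit (edgeR adjusted p 0.206 and 0.169). The libraries did not overlap for 9 of 13 hosts, all lower in TRB cells, where 14.7% of genes were. With both T3 groups alone 0 members passed, and leaving out any of the other 11 libraries gave 2 to 6, with 2 when replicate 1 or 3 of EV cells with T3 was left out.

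The difference between the T3 responses of TRB and EV cells was tested directly as an interaction. With 12 libraries 3 of 27 passed, all with a more negative response in TRB cells, where 2.59% of genes passed, 1.77% in the positive and 0.825% in the negative direction. These were SNHG15 (-1.27, SE 0.24, edgeR adjusted p 0.0213), LINC00511 (-1.20, SE 0.264, adjusted p 0.041) and SNHG4 (-1.09, SE 0.239, adjusted p 0.0404). Without replicate 2 of TRB cells with T3 13 passed, 2 positive and 11 negative, where 15.2% of genes passed, 8.55% positive and 6.68% negative. LINC00205 (1.04) and LINC00294 (1.05) were the positive ones. GAS5, LINC00338, SNHG1, SNHG3, SNHG5, SNHG7, SNHG8 and SNHG10 joined the negative ones, with values from -0.53 for SNHG1 to -1.20 for SNHG5.

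For NEAT1 the T3 response did not differ between the cells beyond the threshold (0.46, SE 0.255, edgeR adjusted p 0.311 with 12 libraries; 0.33, SE 0.173, adjusted p 0.219 with 11). SNHG16 gave -0.36 (SE 0.185, adjusted p 0.287). The count of 3 was 0 when any 1 of 8 other libraries was left out (all EV libraries but replicate 2 with T3, and the 3 vehicle libraries of TRB cells), and 6 in DESeq2. With the replicate number as a block SNHG15 and LINC00511 passed and SNHG4 did not (-1.09, edgeR adjusted p 0.0616).

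Partners of the pathway were then counted from named lists. Of 16 tested proteins of snoRNA particles and their assembly, 4 fell with T3 in TRB cells and 0 rose (median -0.39), where 6.2% of all genes fell. FBL, the methyltransferase of box C/D particles, stood at 306, 314 and 314 CPM with vehicle and 175, 142 and 177 with T3 (-0.92, SE 0.157, edgeR adjusted p 0.00284, and -0.78 with 11 libraries). NHP2, a core protein of H/ACA particles, fell by 1.10 (SE 0.285, adjusted p 0.026), NOP56, a box C/D core protein, by 0.73 (SE 0.13, adjusted p 0.00357) and DKC1, the pseudouridine synthase, by 0.69 (SE 0.198, adjusted p 0.0404). With 11 libraries NHP2 gave -0.76, NOP56 -0.65 and DKC1 -0.93. Without replicate 2, 7 of 16 fell, where 15.2% of all genes did, NAF1 with the most negative value of those (-1.07, adjusted p 0.000228). In EV cells 0 of 16 passed in edgeR with 12 libraries (2 at an unadjusted p under 0.05, and 0 in DESeq2 and limma-voom), and with 11 GAR1, another H/ACA core protein, fell by 0.75 (adjusted p 0.0349). Of all genes 0.229% passed there with 12 libraries and 7.33% with 11. NOP56 was the one list gene past the threshold of the interaction with 12 libraries (-0.90, SE 0.183, adjusted p 0.0281).

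Of 25 tested protein-coding snoRNA hosts and TOP genes, 7 fell and 0 rose with T3 in TRB cells (median -0.73), where 6.2% of all genes fell. Without replicate 2, 20 fell and 0 rose (median -0.57), where 15.2% of all genes fell. RPL3, a ribosomal protein, stood at 1416, 1276 and 1265 CPM with vehicle and 776, 291 and 776 with T3 (-1.10, SE 0.311, edgeR adjusted p 0.0376). Replicate 2 was the lowest. RPS12 fell by 1.08 (SE 0.197, adjusted p 0.00402), RPSA by 1.02 (SE 0.223, adjusted p 0.0109) and the elongation factor gene EEF1A1 by 0.76 (SE 0.151, adjusted p 0.00655). With 11 libraries RPL3 gave -0.72, RPS12 -0.96, RPSA -0.81 and EEF1A1 -0.61. In EV cells 0 of 25 passed with 12 libraries (1 at an unadjusted p under 0.05, and 0 in DESeq2 and limma-voom), and with 11 libraries HSPA8 alone passed, higher by 0.31 (adjusted p 0.0439). Of all genes 0.229% passed there with 12 libraries and 7.33% with 11.

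The counts of this paragraph are read against 14.7% of all genes past the threshold with 12 libraries and 33.3% with 11. Of 15 nonsense-mediated decay factors, only XRN1, the exonuclease that degrades decapped RNA, passed in TRB cells. It stood at 38.7, 51.1 and 45.9 CPM with vehicle and 75.2, 207 and 68.3 with T3, replicate 2 being far above the others, and rose by 1.37 (SE 0.411, edgeR adjusted p 0.0485) with 12 libraries and 0.71 (SE 0.227, adjusted p 0.0288) with 11. Of 14 paraspeckle proteins 0 passed with 12 libraries (2 at an unadjusted p under 0.05, 1 in DESeq2 and 0 in limma-voom). With 11 libraries EWSR1 rose by 0.27 (adjusted p 0.0327) and HNRNPH3 fell by 0.42 (adjusted p 0.0474). Of 12 nuclear speckle proteins 0 passed in either fit (3 and 4 at an unadjusted p under 0.05, and 0 in DESeq2 and limma-voom).

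**Figure D5:**
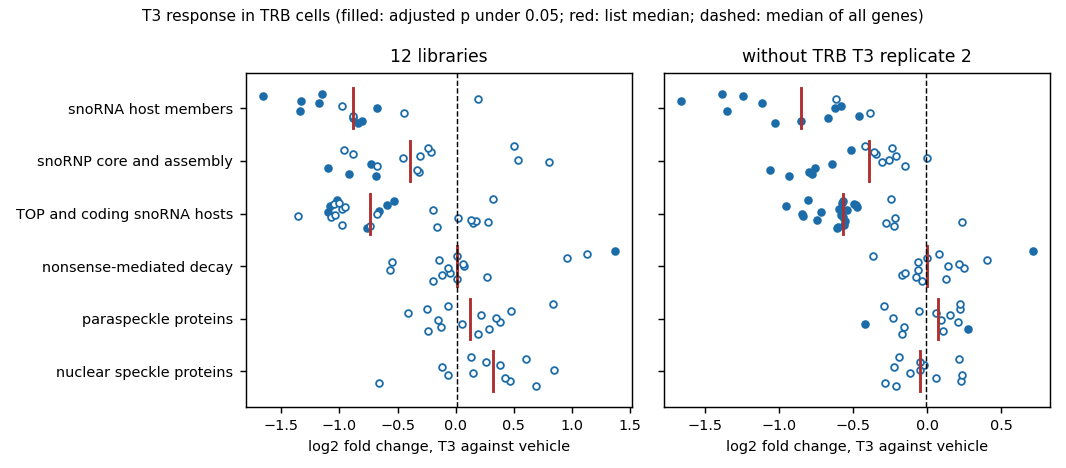
Each point is 1 gene: the horizontal axis gives its fitted log2 fold change for T3 against vehicle in TRB cells with 12 libraries (left) and without replicate 2 (right), filled where it passed, with the list median in red and the median of all genes dashed. The snoRNA hosts and the TOP and coding hosts lie mostly left of the dashed line in both panels, with medians of -0.89 and -0.73 on the left and -0.85 and -0.57 on the right.

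Of 18 tested noncoding hosts and long noncoding RNAs outside the set, 2 rose and 2 fell with T3 in TRB cells, and 2 rose and 5 fell with 11 libraries. These counts are read against 14.7% of all genes past the threshold with 12 libraries and 33.3% with 11. MIR22HG, host of miR-22, stood at 2.03, 2.93 and 3.36 CPM with vehicle and 13.2, 13.9 and 15.4 with T3 (2.34, SE 0.281, edgeR adjusted p 0.000306), with groups far apart. KCNQ1OT1, an imprinted antisense RNA, stood at 94.2, 82.6 and 96.6 CPM with vehicle and 233, 275 and 159.5 with T3 (1.29, SE 0.214, adjusted p 0.00239). LRRC75A-AS1 (-1.03, adjusted p 0.00544) and EPB41L4A-AS1 (-0.72, adjusted p 0.024), also snoRNA hosts, were the 2 that fell. With 11 libraries MIR22HG gave 2.38, KCNQ1OT1 1.16, LRRC75A-AS1 -0.77 and EPB41L4A-AS1 -0.86, and MIR17HG, ZFAS1 and C6orf48 fell as well. Among 6 tested partners at imprinted loci, KCNQ1OT1 rose and PLAGL1, a zinc finger gene, gave -1.28 (SE 0.191, adjusted p 0.00124), or -1.13 with 11 libraries. With 11 libraries 5 of 7 passed, where 33.3% of all genes did, against 14.7% with 12. CDKN1C, an inhibitor of the cell cycle, gave 0.72 (edgeR adjusted p 0.045) and IGF2BP3, an RNA-binding protein, -0.74 (adjusted p 0.00369). DIO3, the deiodinase that inactivates thyroid hormone, passed the filter on low counts in that fit only. TRB cells with T3 are the smallest group there, and DIO3 was higher in them than in EV cells with T3 (log2 fold change 4.14). It may thus have passed the filter through the group where it is high. Its call, which is among the 5, is not read as a result.

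Most snoRNAs within these hosts were scarcely read. Over all rows of snoRNAs and small Cajal body RNAs, 176 of 446 symbols had a count, with 139230 counts in total. Of 14 hosts looked up (LINC00338 included), RefSeq places 40 snoRNAs within the hosts other than LINC00338 and SNHG10, which hold 0 there. GENCODE 29 places SCARNA16 in LINC00338 and SCARNA13 in SNHG10, outside this count. SCARNA13 stood at 66.8, 31.5 and 58.3 CPM with vehicle and 34.0, 14.6 and 29.1 with T3 in TRB cells, with overlapping groups. Of the 40, 25 had a row of their own in the count table, 7 had any count and 4 could be tested. SNORA73B in SNHG3 held 5394 counts over the 12 libraries, the most of those 4. Its GENCODE 29 sequence on chr1:28508559-28508762 (plus strand, 204 bases, GRCh38) is shown because it had the most counts of those 4. Capitals mark the ACA box 3 bases from its end.
SNORA73B: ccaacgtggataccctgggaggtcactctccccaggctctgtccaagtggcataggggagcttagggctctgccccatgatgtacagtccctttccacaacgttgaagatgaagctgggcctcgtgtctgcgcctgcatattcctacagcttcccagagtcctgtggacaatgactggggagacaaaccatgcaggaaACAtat
With T3 in TRB cells SNORA73B gave -1.31 (SE 0.721, edgeR adjusted p 0.239), SNORA74A in SNHG4 -1.83 (SE 0.734, adjusted p 0.124), SNORA74D in SNHG4 -0.42 (adjusted p 0.666) and SNORD99 in SNHG12 -0.90 (adjusted p 0.406). With 11 libraries they gave -0.75, -1.41, 0.09 and -0.40 in the same order, SNORA74D with the other sign. None passed in either fit, and with 12 libraries the SEs of all 4 were larger than those of their hosts. In EV cells SNORA73B gave 1.33 (SE 0.723, adjusted p 0.909), and its interaction passed without replicate 2 of TRB cells with T3 (-2.06, SE 0.609, adjusted p 0.0388). TRB vehicle libraries held 120, 34.1 and 53.4 CPM of SNORA73B, overlapping 42.6 and 36.6 in T3 replicates 1 and 3. EV libraries held 38.2, 28.8 and 31.3 CPM with vehicle and 80.7, 45.5 and 121 with T3. The highest of these was replicate 3, which also had the highest share of reads not unique. With 11 libraries 9 of 63 tested rows of snoRNAs and small Cajal body RNAs passed the interaction. All 9 were negative, where 6.68% of all genes passed in that direction. Over all 63 tested rows of snoRNAs and small Cajal body RNAs, 0 passed for T3 in TRB cells in edgeR with 12 libraries (11 at an unadjusted p under 0.05, 3 in DESeq2 and 0 in limma-voom) and 4 fell with 11. Of all genes 14.7% passed with 12 libraries, and 15.2% fell with 11. The median of the 63 was -0.92 in TRB cells and 0.84 in EV cells with 12 libraries, and -0.59 and 0.84 with 11. How short RNAs were kept in library preparation is not given in the sources used here.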

How the data were processed

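RNA of 12 libraries of SW1736 cells was sequenced in 4 groups of 3. The authors deposited raw counts per gene for each library, and per the submitters' processing notes hg38, CASAVA 1.7, STAR 2.7, HTSeq 0.10 and DESeq2 were used. The annotation and the strand setting are not given in the sources used here. The 5 closing lines of each count file (reads in no gene, ambiguous and not unique) were left out. The authors' normalized table was not used.

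Counts were tested in R 4.3.3 with edgeR 4.0.16 (quasi-likelihood test, TMM scaling, filterByExpr with a minimum count of 10 and a minimum total of 15). 1 model of the 4 groups gave 5 contrasts, two-sided, with Benjamini-Hochberg adjustment over all genes tested and a threshold of 0.05. The SE is the log2 fold change divided by the square root of F. CPM values use the TMM-scaled library sizes. Every fit was repeated without replicate 2 of TRB cells with T3. Alternatives were DESeq2 1.42.0, limma 3.58.1 (voom), other scalings and filters, offsets for GC content (a spline with 5 degrees of freedom per library), a replicate block, the compared groups alone and each library left out. The model was also run on simulated data with a common spread and no outlying library. That spread was smaller than in the 12 libraries (biological coefficient of variation 0.329). The simulation therefore does not test the fit of 12 libraries under its own spread.

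Counts in genes ranged from 3819306 to 13086717 per library, which limits the precision for RNAs near the minimum of 500 counts. Loci, GC content and the SNORA73B sequence came from GENCODE 29, and promoter sequences and the lookup of nested snoRNAs from RefSeq (GRCh38.p14 for the promoters). Members named in the text are SNHG1, SNHG3, SNHG5, SNHG6, SNHG7, SNHG8, SNHG12, SNHG15, SNHG16, GAS5, MALAT1, NEAT1, the 5 LINC genes with the most counts and the called members with the largest changes (up to 5 per direction and contrast). LINC00467, LINC01138, LINC01232, LINC00997, LINC00476, SNHG10 and SNHG11 were named beyond that rule, after their values were seen. List genes are up to 4 per direction and contrast with the largest change among those that passed. The members and lists were chosen with earlier results of these data known.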

Additional observations from a re-analysis of the deposited data

Results flagged for a closer look

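3 RNAs stood out because their response to T3 differed between TRB and EV cells in a direct test of the difference (edgeR, 12 libraries). The response of SNHG15 was more negative in TRB cells by -1.27 on the log2 scale, that of LINC00511 by -1.20 and that of SNHG4 by -1.09. In each of them the 3 T3 libraries of TRB cells were the lowest of all 12 libraries, replicate 2 included. The RNAs were picked from the same libraries, so this order is a description and adds no support. The share of all genes with this order is not given here. Leaving out 1 library other than that replicate 2 gave 0 to 2 RNAs past the threshold of the difference. With the replicate number as a block SNHG4 missed the threshold (adjusted p 0.0616). Groups of 3 libraries are too small for a test of single outlying libraries.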

How the results depend on the processing

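Settings were run for the 43 results of named RNAs that passed in either fit. Over 977 such values 777 kept their side of the threshold, 120 lost it, 80 gained it and 0 changed sign. RNAs that passed in no fit, among them MALAT1 and SNHG6, whose sign differs between the fits of 12 and 11 libraries, and the list genes were not part of this. Counts of the 27 RNAs past the threshold moved more. The share of all genes under each setting is not given here. The counts below therefore do not show whether the 27 moved more than all genes. For T3 in EV cells (0) the count was 1 with upper-quartile scaling, with at least 10 counts in every library, in DESeq2, with GC offsets and with the compared groups alone, 4 with GC offsets and without replicate 2 of TRB cells with T3, and 0 to 2 with 1 library left out. For T3 in TRB cells (14) it was 23 with GC offsets and without that library, 4 with the compared groups alone, and 10 to 17 with 1 library left out. For TRB against EV cells with vehicle (0) it was 1 with the compared groups alone and 0 to 0 with 1 library left out. For TRB against EV cells with T3 (7) it was 0 with no count filter and with the compared groups alone, 13 with GC offsets, 17 with GC offsets and without replicate 2 of TRB cells with T3, and 2 to 14 with 1 library left out. For the interaction (3) it was 0 with no count filter, 6 in DESeq2, 8 with GC offsets, 16 with GC offsets and without that library, and 0 to 13 with 1 library left out. Apart from the comparison with vehicle, the highest count of each range came from leaving out replicate 2 of TRB cells with T3. The causes were not tested. The compared groups alone leave fewer libraries to estimate the spread, and the count rose in some comparisons and fell in others.

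With the replicate number as a block the counts were 0 for T3 in EV cells, 14 for T3 in TRB cells, 0 with vehicle, 8 with T3 and 2 for the interaction. With GC offsets and the replicate block they were 1, 20, 0, 14 and 9. Both sets of counts stand without the share of all genes. SNHG4 was the interaction call lost under the block (adjusted p 0.0616). Nothing in the labels says what a number shares. Deviations from the group means had a median correlation of 0.19 over 18 same-numbered pairs of libraries (12 above 0.1, range -0.23 to 0.79) and -0.13 over 36 pairs with different numbers (11 above 0.1). In 20 of 36 cases the library that correlated best, out of 3 in another group, bore the same number. Pairs with different numbers reached 0.72. Deviations within a group sum to 0, so the values for same and different numbers depend on each other. Whether numbers share something was not tested. In no compared pair of groups were all 3 correlations above 0.1, so the block was kept as an alternative. A minimum of 200 or 2000 counts gave 16 or 12 for T3 in TRB cells. Depth limits SNHG11, LINC00896 and LINC00476, with 895, 875 and 678 counts in total, and the snoRNA rows.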
